A study of Drosophila melanogaster with 12 samples.

Results

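The genes described here encode the machinery that copies DNA and drives the cell cycle, and their mRNA was measured by sequencing in wing imaginal discs of Drosophila melanogaster larvae in the third instar. Imaginal discs are larval epithelia that proliferate and later form adult structures. The genes were chosen as a list of 39 genes by their function, with earlier results of these data known. They were looked up by FlyBase identifier in the count table of 14869 genes. In all, 37 of the 39 were found, 35 under their current identifier and 2, Mcm3 and RPA2, under an older one. Orc1 and BubR1 could not be paired with an identifier of the table and were not analysed here.

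The study compared 4 genotypes with 3 libraries each, each from a separate RNA preparation. In ASH1 WT discs the endogenous ash1 gene carried the mutant alleles ash1[10] and ash1[22] in trans, and a transgene under the αTubulin promoter supplied full-length ASH1 fused to EGFP. ΔBAH discs had the same alleles and promoter but a fusion protein without the BAH domain, and ΔBAH mutAT1 discs had a fusion protein that lacked the BAH domain and was also mutated in AT hook 1. Wild type discs were w[1118], and all larvae were raised at 25 degrees. The transgene stocks are listed with w[1118] and a y mutation, and the ash1[10] and ash1[22] stocks as w mutant without a named allele. ASH1 is a Trithorax group histone methyltransferase that maintains active gene expression. Each transgenic genotype was 1 line with the transgene at the same genomic site.

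As background, a replication origin is first bound by the origin recognition complex (ORC). ORC, together with Double parked (dup, the fly Cdt1), then loads the MCM helicase, a ring of subunits that later unwinds the DNA. Geminin holds Double parked back so that origins are not loaded again in the same cycle. At the fork, replication factor C places the sliding clamp PCNA, and ribonucleotide reductase supplies deoxynucleotides. Cyclin E with Cdk2, under E2f1 and Dp, drives entry into S phase, whereas String (the fly Cdc25) activates Cdk1 with the mitotic cyclins at the entry into mitosis. Many of these genes are E2F targets in flies and mammals, and their mRNAs are abundant where cells cycle.

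Library depth lay between 15083960 and 39180697 counts, and all 37 genes passed the filter on low counts. The lowest count of any of them in any library was 99 (Orc6). Levels are given as CPM, counts scaled to a TMM-adjusted library of 1000000 counts, and where genes are compared with each other as RPKM, that is CPM per kilobase of exon in the BDGP6 annotation. The ash1 gene itself had 233.6 to 534.3 CPM in ASH1 WT discs. It had 154.5 to 447.9 CPM in ΔBAH discs and 181.9 to 417.0 CPM with mutAT1 added, against 85.6 to 112.2 CPM in wild type, with reads of the transgene and of the mutant alleles counted together. All 12 wing disc markers matched in the table were detected, with a summed level of 2050 to 4104 CPM per library. The numbers of the libraries fell into 3 blocks that were read as sequencing runs. Run 1 held the first replicates of ΔBAH mutAT1 and wild type. Run 2 held the first replicates of ASH1 WT and ΔBAH and the second replicates of ΔBAH mutAT1 and wild type, and run 3 held the other 6 libraries. Wild type replicate 1 had 3226 CPM of 9 larval fat body markers, against 253.5 to 635.3 CPM in the other 11 libraries. Of these sums, Desat1 made up 230.8 to 387.6 CPM over the 12 libraries. In wild type replicate 3 Lsp1beta had 136.0, Lsp1gamma 124.7 and Lsp2 86.8 CPM, against 6.0, 2.9 and 1.5 CPM in wild type replicate 2. In ΔBAH mutAT1 replicate 1 the same markers had 57.6, 42.6 and 56.8 CPM. The second library of ΔBAH (18.7 CPM) had the highest sum of salivary gland markers.

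Per length, PCNA was the most abundant of the 37 transcripts in wild type discs (216.9 ± 51.6 RPKM, SD, n = 3). It was followed by the mitotic kinase gene polo (145.6 ± 4.3 RPKM), the mitotic cyclin gene CycB (136 ± 14 RPKM), the RnrS subunit of ribonucleotide reductase (124.2 ± 33.7 RPKM), Cdk1 (121.2 ± 36.6 RPKM) and geminin (113.1 ± 27.7 RPKM). These neighbours in the order lay within each other's spread, except PCNA and polo, whose means differed by more than the larger SD. The ORC subunit genes were the lowest, with 9.15 ± 1.32 RPKM for Orc6, 13.3 ± 0.9 RPKM for Orc2, 14.7 ± 3.2 RPKM for Orc5 and 20.7 ± 0.5 RPKM for Orc4. The MCM subunit genes had similar levels per length in wild type, between 39.6 RPKM (Mcm5) and 62.4 RPKM (Mcm6), with Mcm2 at 45.7 RPKM, Mcm3 at 50.2 RPKM, dpa, the fly Mcm4, at 55.9 RPKM and Mcm7 at 61.9 RPKM. dup stood at 25.9 RPKM, well under its inhibitor geminin.

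The clamp loader genes were spread more widely, with RfC3 at 24.4 RPKM, RfC38 at 30.7 RPKM, Gnf1, the large subunit, at 32.4 RPKM and RfC4 at 84.0 RPKM in wild type. RPA2, a subunit of the single-strand binding protein, had 73.0 RPKM, and RnrL, the large subunit of ribonucleotide reductase, had 89.3 RPKM. Among the regulators, CycD had 33.7 RPKM, CycE 22.5 RPKM, Cdk2 28.8 RPKM, the CDK inhibitor gene dap 43.0 RPKM, E2f1 57.4 RPKM and its partner Dp 89.2 RPKM. CycA had 89.96 RPKM, CycB3 39.8 RPKM and stg 74.6 RPKM. Of the genes of mitosis, fzy (the fly Cdc20) had 79.8 RPKM, tum and pav, whose products form the centralspindlin complex of cytokinesis, 59.0 and 58.3 RPKM, aurB 58.0 RPKM and the checkpoint gene mad2 44.1 RPKM.

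Across the 12 libraries the highest CPM of a gene was between 1.16 times (polo) and 3.24 times (geminin) its lowest, with a median of 1.67 times. The spread was not even among genes. PCNA, Orc6, aurB and mad2 each spanned more than 2.5-fold over the libraries, whereas fzy, CycD and CycB, like polo, varied by no more than 1.31 times. In the map of all 37 genes the widest deviations lay in the first libraries of ASH1 WT and ΔBAH, both from run 2.

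**Figure D1:**
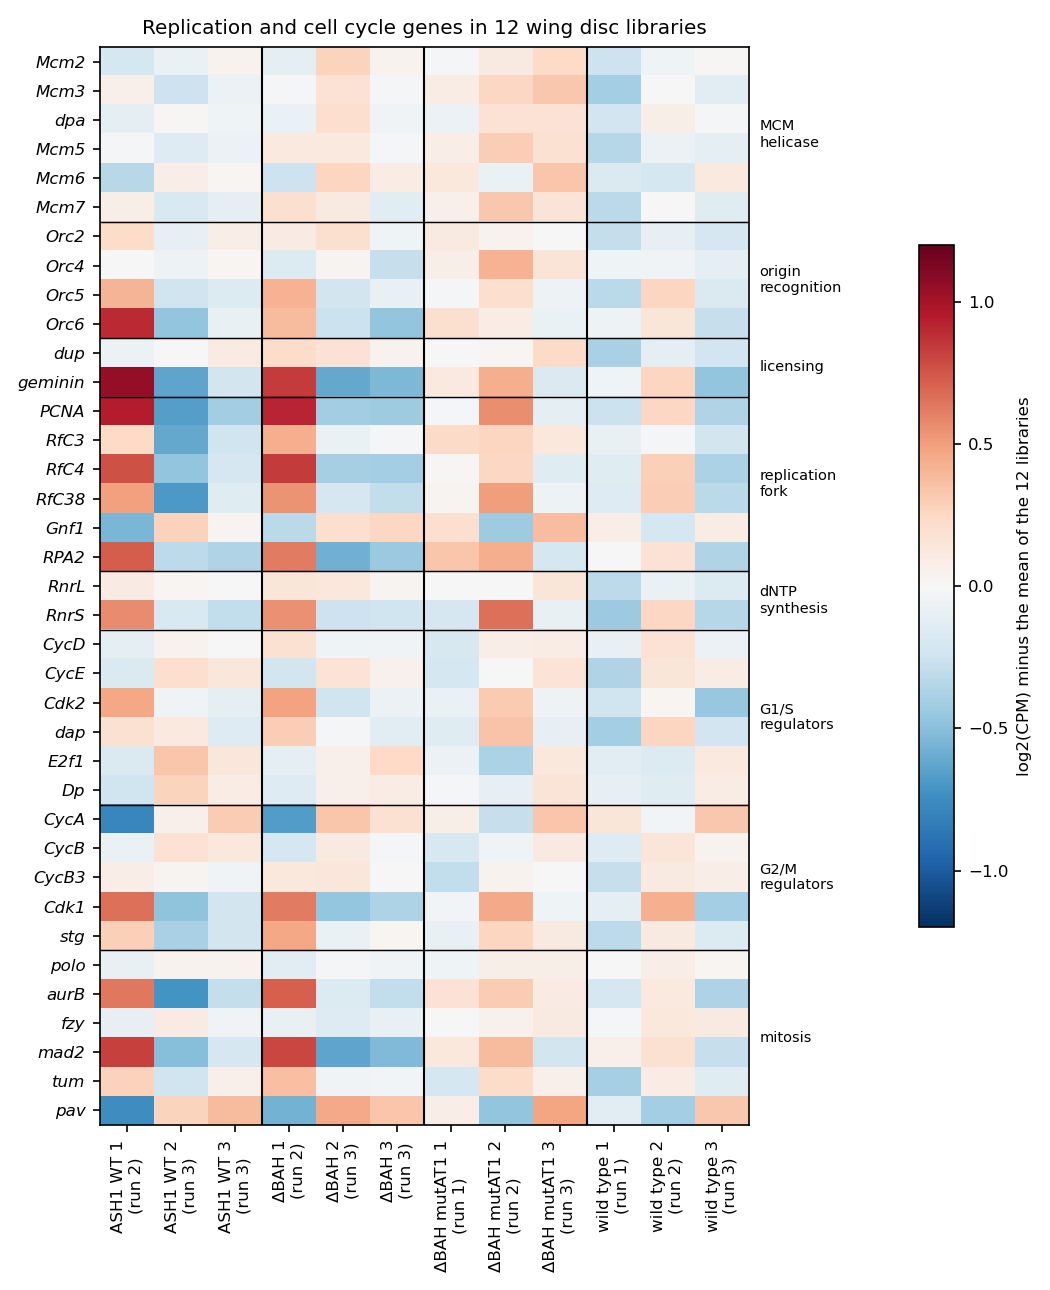
Each row is a gene, ordered by role, and each column a library, with its run in brackets. The colour gives log2(CPM) minus the mean of the 12 libraries, and the first ASH1 WT and first ΔBAH libraries have the deepest red in geminin, PCNA, RfC4 and mad2 and blue in CycA and pav.

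The comparison of ASH1 WT with wild type asks how discs that rely on the full-length fusion differ from discs with normal ash1. No gene of the set passed an adjusted p of 0.05 (edgeR quasi-likelihood test with Benjamini-Hochberg adjustment over 8346 genes, of which 1.92% passed). Of the 37, 0 had an unadjusted p below 0.05 (edgeR), beside 730 of the 8346 tested genes. DESeq2 and limma-voom called 0 as well. The log2 fold changes were small and mostly positive, 31 of 37 being above 0 against 51.2% of all tested genes, with a median of 0.09 beside 0.01 over all tested genes. Between libraries of the same genotype, the median level of the 37 genes had an SD of 0.11 on the log2 scale. Genes of the same libraries are not independent replicates, so the count of positive values does not measure this spread. The median depended on single libraries. It was 0.01 without ASH1 WT replicate 1 (23 of 37 above 0), 0.04 without wild type replicate 1 (24 of 37) and 0.18 without wild type replicate 2 (30 of 37). With sequencing run as a term the median was 0.04, with 24 of 37 above 0 against 47.6% of all tested genes. Leaving out the same libraries in that model gave 0.02, 0.07 and 0.05. Within both run 2 and run 3, 11 of the 37 were higher in ASH1 WT, beside 24.4% of 8081 genes, and 6 were lower, beside 32%. In whole discs, a larger share of cycling cells and more mRNA per cycling cell cannot be told apart.

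The smallest p above 0 was that of Orc2, which had 35.5, 28.4 and 32.2 CPM in ASH1 WT, against 24.9, 28.3 and 26.4 CPM in wild type. All ASH1 WT libraries lay above all wild type libraries, but the gap between the nearest ones was small. Its log2 fold change was 0.27 ± 0.14 (SE) with an adjusted p of 0.66 (edgeR). Next came dup with a log2 fold change of 0.25 ± 0.13 and an adjusted p of 0.69 (edgeR). In the other direction stood CycA, at -0.23 ± 0.31, and fzy, at -0.09 ± 0.12, both with an adjusted p of 1.00 (edgeR). CycA had 136.7, 245.3 and 290.4 CPM in ASH1 WT, against 261.5, 230.6 and 295.6 CPM in wild type, so that the run 2 library of ASH1 WT stood apart. Without that library its log2 fold change was 0.03.

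With sequencing run as a term in the model, 1 gene was called higher, beside 3.67% of all tested genes. This was Cdk2, the partner of Cyclin E, with a log2 fold change of 0.37 ± 0.10 and an adjusted p of 0.049 (edgeR). Cdk2 had 105.2, 74.2 and 70.6 CPM in ASH1 WT, against 65.0, 77.9 and 55.9 CPM in wild type. The groups overlapped over the runs, while within run 2 (105.2 against 77.9 CPM) and run 3 (74.2 and 70.6 against 55.9 CPM) ASH1 WT was the higher. Leaving out any 1 of the 6 libraries compared ended the call of Cdk2, and without wild type replicate 3 CycA was called lower instead (-0.59).

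In ΔBAH against wild type, again 0 of the 37 genes passed the adjusted p of 0.05 by edgeR or limma-voom. Of all tested genes 1.93% passed (edgeR). An unadjusted p below 0.05 (edgeR) was seen in 2 of the 37, beside 738 of 8346 tested genes. DESeq2 called 2 genes, beside 4.51% of all tested genes. They were dup, the origin licensing factor, and RnrL. dup had 111.9, 108.4 and 98.5 CPM in ΔBAH, against 73.3, 88.3 and 82.0 CPM in wild type. The groups did not overlap, and the log2 fold change was 0.39 ± 0.13 with an adjusted p of 0.27 (edgeR) and 0.037 (DESeq2). RnrL had 289.5, 284.8 and 267.4 CPM in ΔBAH, against 210.4, 247.0 and 233.3 CPM in wild type. Here too the groups stood apart, with a log2 fold change of 0.29 ± 0.12 and an adjusted p of 0.52 (edgeR) and 0.046 (DESeq2).

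Of the genes below wild type, fzy and polo, which act in mitosis, had the smallest p. fzy, which activates the anaphase-promoting complex, had 142.2, 135.9 and 142.1 CPM in ΔBAH, against 149.2, 165.6 and 163.1 CPM in wild type, a log2 fold change of -0.19 ± 0.12 with an adjusted p of 0.91 (edgeR). polo was at -0.10 ± 0.12 with an adjusted p of 1.00 (edgeR). Over the set 31 of 37 log2 fold changes were positive, against 50.3% of all tested genes, and the median was 0.13 beside 0.00. Without ΔBAH replicate 1 the median was 0.08 with 22 of 37 above 0, and without wild type replicate 2 it was 0.27. With sequencing run as a term 0 genes of the set were called, beside 3.24% of all tested genes called higher. The median was then 0.12, with 27 of 37 above 0. In that model 3 of the 12 wing disc markers, ap, Dll and zfh2, were called lower, beside 252 of 8346 tested genes.

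In ΔBAH mutAT1 against wild type the median log2 fold change of the 37 genes was 0.17, beside 0.00 over all tested genes, and 30 of 37 values were positive, against 49.6% of all tested genes. The SD of the median level between libraries of the same genotype was 0.11. Without ΔBAH mutAT1 replicate 2, its library of run 2, the median was 0.11, under the 0.13 of ΔBAH. With sequencing run as a term the median was 0.24 without that library and 0.18 with it, beside 0.12 in ΔBAH. No gene passed the adjusted p of 0.05 by edgeR or limma-voom, beside 2.17% of all tested genes. DESeq2 called 1 (Mcm5), beside 4.24% of all tested genes. An unadjusted p below 0.05 (edgeR) was seen in 4 of the 37, beside 674 of 8346 tested genes. The 4 were Mcm3, Mcm5, Mcm7 and dup.

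**Figure D2:**
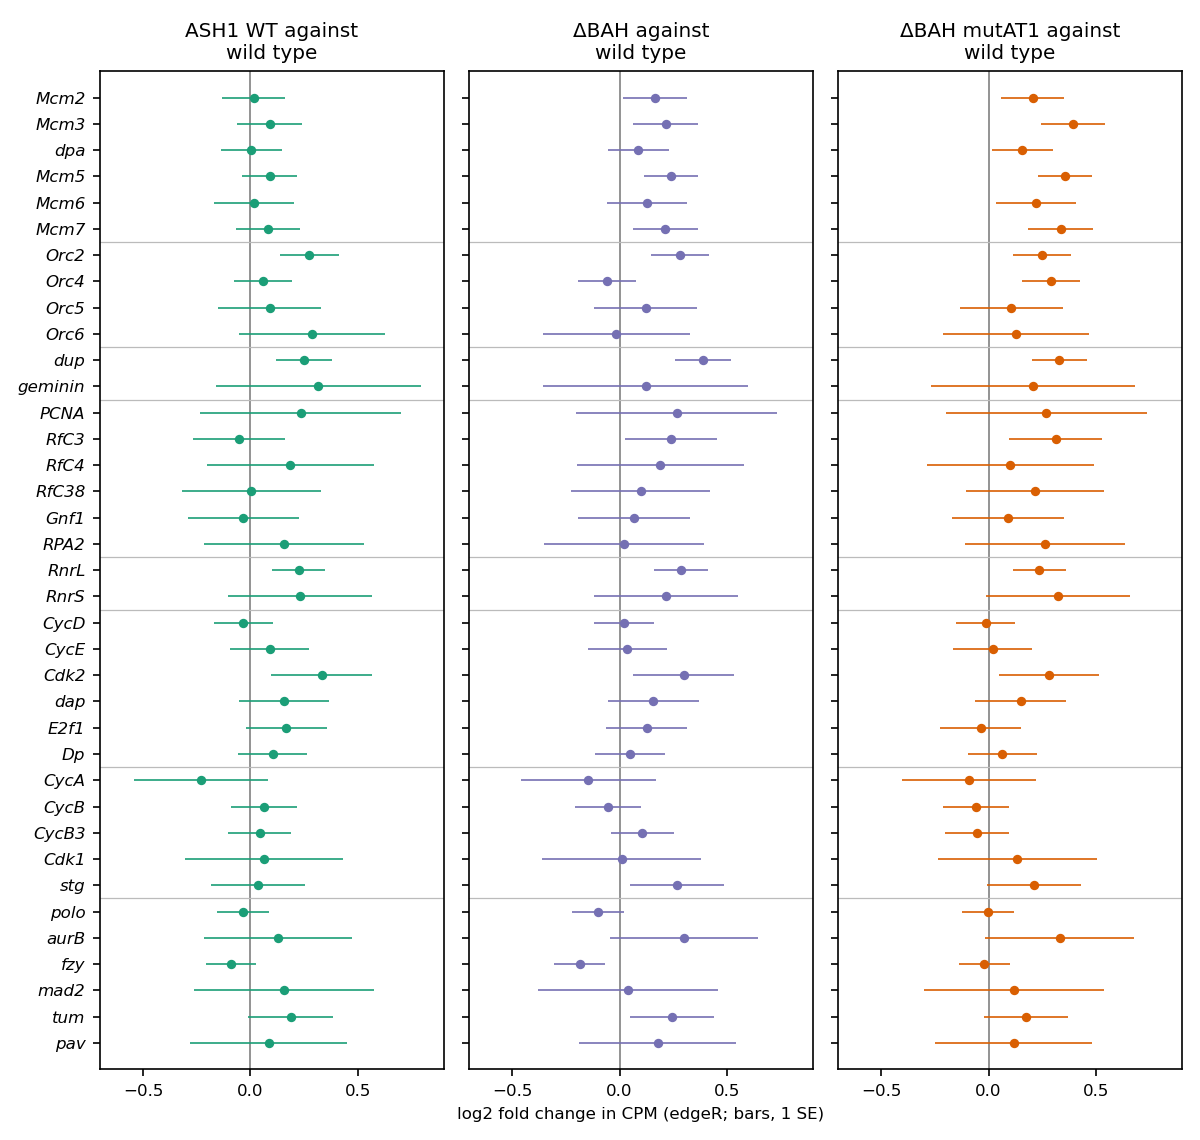
Points give the log2 fold change of each gene in ASH1 WT, ΔBAH and ΔBAH mutAT1 against wild type, with bars of 1 SE (edgeR, 12 libraries); lines separate the roles. All 3 panels share the wild type libraries, and all 6 MCM genes lie to the right of 0 in each of them. In ASH1 WT each of the 6 lies within 1 SE of 0. With sequencing run as a term, Mcm2 (-0.08), dpa (-0.08) and Mcm6 (-0.07) were below 0 in ASH1 WT. Mcm3 (0.02), Mcm5 (0.04) and Mcm7 (0.04) were above it.

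All 6 MCM helicase genes had positive values in ΔBAH mutAT1. Mcm3 had 164.9, 184.8 and 193.6 CPM in ΔBAH mutAT1, against 117.1, 155.5 and 141.2 CPM in wild type. Mcm5 had 115.3, 133.7 and 124.2 CPM, against 86.3, 103.8 and 101.5 CPM in wild type. Mcm7 had 175.3, 211.0 and 187.6 CPM, against 134.5, 168.1 and 152.3 CPM in wild type. In all 3 genes every ΔBAH mutAT1 library lay above every wild type library. The log2 fold changes were 0.39 ± 0.15 for Mcm3, 0.36 ± 0.13 for Mcm5 and 0.34 ± 0.15 for Mcm7, with adjusted p of 0.41, 0.32 and 0.61 (edgeR). For the other subunits the libraries overlapped, and the values were 0.21 for Mcm2, 0.16 for dpa and 0.22 for Mcm6. In all, 8 of the 37 genes had every ΔBAH mutAT1 library above every wild type library, beside 7.34% of all tested genes. Besides these 3 they were Orc2, Orc4, dup, RfC3 and RnrL.

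Replicates with the same number of ΔBAH mutAT1 and wild type came from the same run, and their deviations from the genotype means were correlated (0.42, 0.44 and 0.49), so that these samples can be treated as paired. With the replicate number as a block and only these 6 libraries, 10 of the 37 genes were called and all were higher, beside 5.53% of all tested genes. They were Mcm3, Mcm5, Mcm7, dup, PCNA, RfC3, RPA2, RnrS, Cdk2 and aurB. Of the 10, 8 act in origin licensing, at the fork or in nucleotide supply. Cdk2 acts at the start of S phase and aurB, a kinase of chromosome segregation, in mitosis. The 37 genes themselves include 6 MCM, 4 ORC, 2 licensing, 6 fork and 2 ribonucleotide reductase genes. Whether the calls favour a role was not tested. The paired log2 fold changes were 0.40 ± 0.08 for Mcm3, 0.36 ± 0.07 for Mcm5 and 0.34 ± 0.06 for Mcm7, with adjusted p of 0.014, 0.013 and 0.014 (edgeR). The fold change itself hardly differed from that without the block.

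PCNA differed more between the runs than between these genotypes. It had 245.2, 364.9 and 228.6 CPM in ΔBAH mutAT1, against 207.8, 295.3 and 193.2 CPM in wild type. Over the runs the groups overlapped, but in every run ΔBAH mutAT1 was the higher, and the paired log2 fold change was 0.27 ± 0.06 with an adjusted p of 0.024 (edgeR). RnrS likewise had 190.3, 345.6 and 206.0 CPM in ΔBAH mutAT1, against 161.9, 259.6 and 172.0 CPM in wild type, a paired log2 fold change of 0.31 ± 0.06 with an adjusted p of 0.021 (edgeR). Altogether 24 of the 37 genes were higher in ΔBAH mutAT1 in each of the 3 runs, beside 23.9% of 8011 tested genes with counts in all libraries compared, and 1 gene, CycB3, was lower in each. All 6 MCM genes were among the 24. Within the runs the median difference of the 37 genes was 0.19 in run 1, 0.13 in run 2 and 0.22 in run 3 on the log2 scale.

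**Figure D3:**
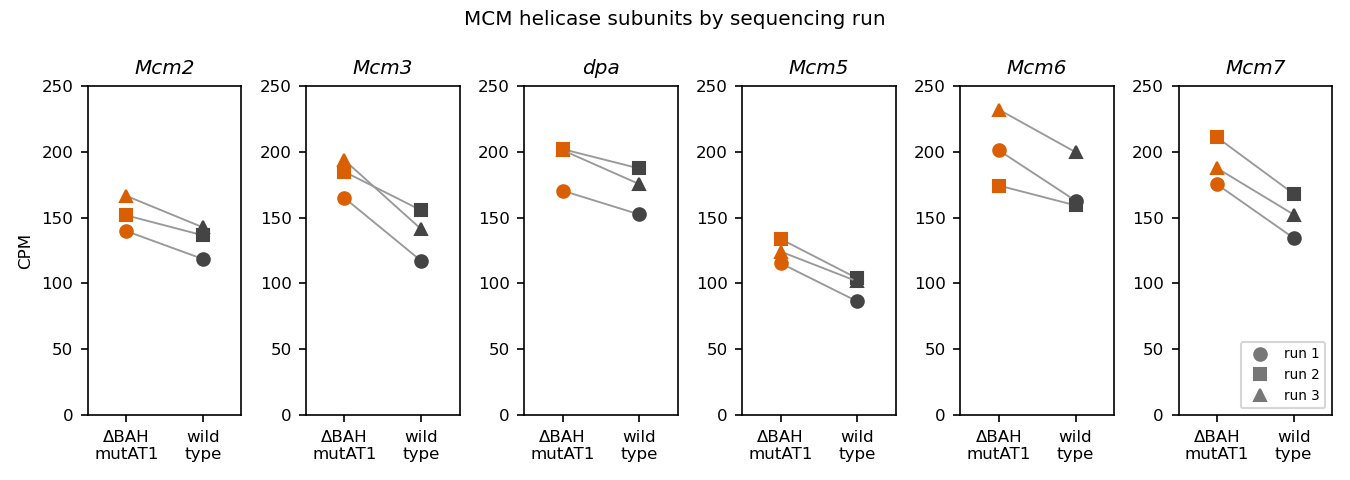
CPM of the MCM helicase genes in ΔBAH mutAT1 and wild type, with a line joining the libraries of 1 sequencing run. Every line slopes down to wild type, the least in dpa in run 2 (a log2 difference of 0.11) and the most in Mcm3 in run 1 (0.49).

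With sequencing run as a term over all 12 libraries, 4 genes were called, all higher in ΔBAH mutAT1, beside 3.33% of all tested genes. They were Mcm3 (log2 fold change 0.40 ± 0.10, adjusted p 0.032, edgeR), Mcm5 (0.36 ± 0.08, adjusted p 0.019), Mcm7 (0.34 ± 0.08, adjusted p 0.031) and RnrS (0.30 ± 0.08, adjusted p 0.040). Leaving out ΔBAH mutAT1 replicate 2 left 1 call, and leaving out any other of the 6 libraries compared left 0. Of the genes of entry into mitosis, stg (0.21 ± 0.22) and Cdk1 (0.13 ± 0.37) had positive values and were higher in ΔBAH mutAT1 in each of the 3 runs, by 0.23, 0.14 and 0.28 for stg in runs 1 to 3, yet neither was called (adjusted p 1.00, edgeR). CycB had a log2 fold change of -0.06 ± 0.15 and CycB3 of -0.05 ± 0.15, both with an adjusted p of 1.00 (edgeR). CycB, a mitotic cyclin, had 359.4, 394.6 and 440.6 CPM in ΔBAH mutAT1, against 368.6, 453.4 and 421.1 CPM in wild type. By role, the median log2 fold change was 0.28 for the MCM genes, 0.19 for the ORC genes, 0.27 for licensing, 0.24 for the fork genes, 0.28 for ribonucleotide reductase and 0.12 for the genes of mitosis, against 0.04 for the regulators of S phase entry and -0.05 for those of entry into mitosis; the difference between roles was not tested.

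Other values moved with this comparison. Wild type replicate 1, the library with the most fat body transcripts, had the lowest level of all 12 libraries in 13 of the 37 genes. Among them were Mcm2, Mcm3, dpa, Mcm5, Mcm7, Orc2, dup and RnrL. The share of all tested genes that were lowest in this library was not counted. Without wild type replicate 1 the median over the 37 genes was 0.14, and without wild type replicate 2 it was 0.30. In addition, 6 markers of adult muscle precursors, cells that lie on the notum of the disc, summed to 194.6 to 217.7 CPM in ΔBAH mutAT1, against 238.9 to 288.7 CPM in wild type, and 1 of them, stumps, was called lower. The 4 matched trachea markers summed to 725.7, 1178 and 745.9 CPM in ΔBAH mutAT1, against 985.7, 1440 and 1020 CPM in wild type, lower in ΔBAH mutAT1 in each of the 3 runs. Most of these sums came from 2 genes. In ΔBAH mutAT1 verm had 541.2, 916.8 and 562.8 CPM and serp 175.6, 252.5 and 174.0 CPM, while btl had 8.9, 8.4 and 8.8 CPM. Of the 3 trachea markers that were tested 0 were called, and with run as a term serp (-0.46) and verm (-0.37) were called lower. The 12 wing disc markers summed to 2426 to 3545 CPM, against 2876 to 4104 CPM in wild type, with 0 of them called. The part of these differences in the result was not tested.

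Over the 3 transgenic lines together against wild type, 0 of 37 genes passed the adjusted p of 0.05 by edgeR or limma-voom. Of all tested genes 3.15% passed (edgeR). An unadjusted p below 0.05 (edgeR) was seen in 3 of the 37, beside 889 of 8346 tested genes. The 3 were dup, RnrL and Orc2, and the same 3 had all 9 transgenic libraries above all 3 wild type libraries, beside 2.80% of all tested genes. DESeq2 called 2 of them, dup and RnrL, beside 6.21% of all tested genes. The mean of dup was 96.6 ± 5.7 CPM for ASH1 WT, 106.3 ± 7.0 CPM for ΔBAH and 102.1 ± 9.2 CPM for ΔBAH mutAT1, against 81.2 ± 7.5 CPM in wild type (SD, n = 3 each). Its log2 fold change over the lines was 0.32 ± 0.11 with an adjusted p of 0.20 (edgeR). For RnrL the means were 268.8 ± 10.2, 280.6 ± 11.6 and 271.1 ± 15.5 CPM in these lines and 230.2 ± 18.5 CPM in wild type, a log2 fold change of 0.25 ± 0.10 with an adjusted p of 0.37 (edgeR). Wild type replicate 1, with its 3226 CPM of fat body markers, was the lowest library in dup, RnrL and Orc2, and 3 of these markers were called lower in the transgenic lines, Lsp1beta (-3.95), Lsp1gamma (-5.22) and apolpp (-3.46). Without that library the median over the 37 genes was 0.11, beside 0.13 with it. Wild type replicate 3, which also had Lsp1beta, Lsp1gamma and Lsp2 transcripts, was kept in that fit. The part of the fat body transcripts in the result was not tested. CycA (-0.15 ± 0.25) and fzy (-0.10 ± 0.10) had the smallest p of the genes below wild type, with an adjusted p of 1.00 for both (edgeR). With sequencing run as a term 2 genes were called higher, dup and Cdk2 (0.28 ± 0.08 and 0.33 ± 0.08, adjusted p 0.047 and 0.026, edgeR), beside 4.92% of all tested genes. Both calls were lost without wild type replicate 2, without wild type replicate 3, without ΔBAH replicate 3 or without ΔBAH mutAT1 replicate 1, 3 genes were called without ΔBAH mutAT1 replicate 2, and 1 was called without any other library. The run term also called 4 of the 12 wing disc markers lower (vg, ap, Dll and zfh2), beside 516 of 8346 tested genes. Of the other markers, Lsp1gamma, Mlc2, stumps, zfh1 and serp were called lower and the hemocyte marker vkg higher. The part of these differences in the result was not tested.

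The stepwise comparisons ask what the loss of the BAH domain and then the mutation of AT hook 1 add. Between ΔBAH and ASH1 WT 0 of 37 genes were called by edgeR, DESeq2 or limma-voom, beside 0.00% of all tested genes. Of the 37, 0 had an unadjusted p below 0.05 (edgeR), beside 103 of 8346 tested genes. The median log2 fold change was 0.03. All 6 MCM genes had positive values, between 0.08 and 0.15, among them Mcm5 (0.15 ± 0.13, adjusted p 1.00, edgeR). RfC3 (0.29 ± 0.22) had the smallest p of the genes above 0, and of those below 0 it was Orc6 (-0.30 ± 0.34) and Orc4 (-0.12 ± 0.14), each with an adjusted p of 1.00 (edgeR). Orc6 turned to 0.20 without ASH1 WT replicate 1.

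Between ΔBAH mutAT1 and ΔBAH 0 of 37 genes were called by edgeR, DESeq2 or limma-voom, beside 0.0479% of all tested genes. Beside 163 of 8346 tested genes, 1 of the 37 had an unadjusted p below 0.05 (edgeR). That was Orc4, a subunit of the origin recognition complex, with 36.86, 46.72 and 38.97 CPM in ΔBAH mutAT1, against 31.3, 35.8 and 29.0 CPM in ΔBAH. The libraries did not overlap, and the log2 fold change was 0.35 ± 0.14 with an adjusted p of 1.00 (edgeR). fzy (0.17 ± 0.12) came next above 0, and CycB3 (-0.16 ± 0.15) and E2f1 (-0.16 ± 0.19) had the smallest p below 0. The median over the 37 genes was 0.03. The replicate numbers also pair the libraries of ΔBAH and ASH1 WT (correlations 0.81, 0.59 and 0.49), and 0 genes of the set were called between them with the replicate block.

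The libraries of runs 2 and 3 differed far more in these genes than the genotypes did. In a model with genotype and run, 25 of the 37 genes passed the adjusted p of 0.05 (edgeR), of which 8 were higher in run 3, beside 29.2% of all tested genes, and 17 lower, beside 35.0%. The 17 lower ones included 5 of the 6 fork genes (PCNA, RfC3, RfC4, RfC38 and RPA2), geminin, Orc5, Orc6, Mcm7, RnrS, Cdk1, stg, Cdk2, dap, aurB, mad2 and tum. The 8 higher ones were Mcm2, Mcm6, Gnf1, CycE, E2f1, Dp, CycA and pav.

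Genes that fell in run 3 and genes that rose there stood side by side in the same complexes. Within replication factor C, RfC4 was lower in run 3 by a log2 fold change of -0.90 ± 0.12 while Gnf1, the large subunit, was higher by 0.59 ± 0.09. Of the centralspindlin pair, pav rose by 0.94 ± 0.07 and tum changed by -0.30 ± 0.07. Cdk1 and its partner CycA went apart in the same way (-0.87 ± 0.09 and 0.75 ± 0.10). Each of these 6 had an adjusted p below 0.05, the highest being 0.0036 (tum, edgeR). pav, a kinesin of cytokinesis, had 230.1 to 266.3 CPM in the 6 libraries of run 3, against 114.6 to 144.6 CPM in the 4 libraries of run 2. RnrS had 172.0 to 206.0 CPM in run 3, against 259.6 to 345.6 CPM in run 2, a log2 fold change of -0.74 ± 0.06 with an adjusted p of 1.8e-06 (edgeR). RPA2 had 49.0 to 62.7 CPM in run 3, against 82.1 to 120.2 CPM in run 2 (-0.89 ± 0.10).

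**Figure D4:**
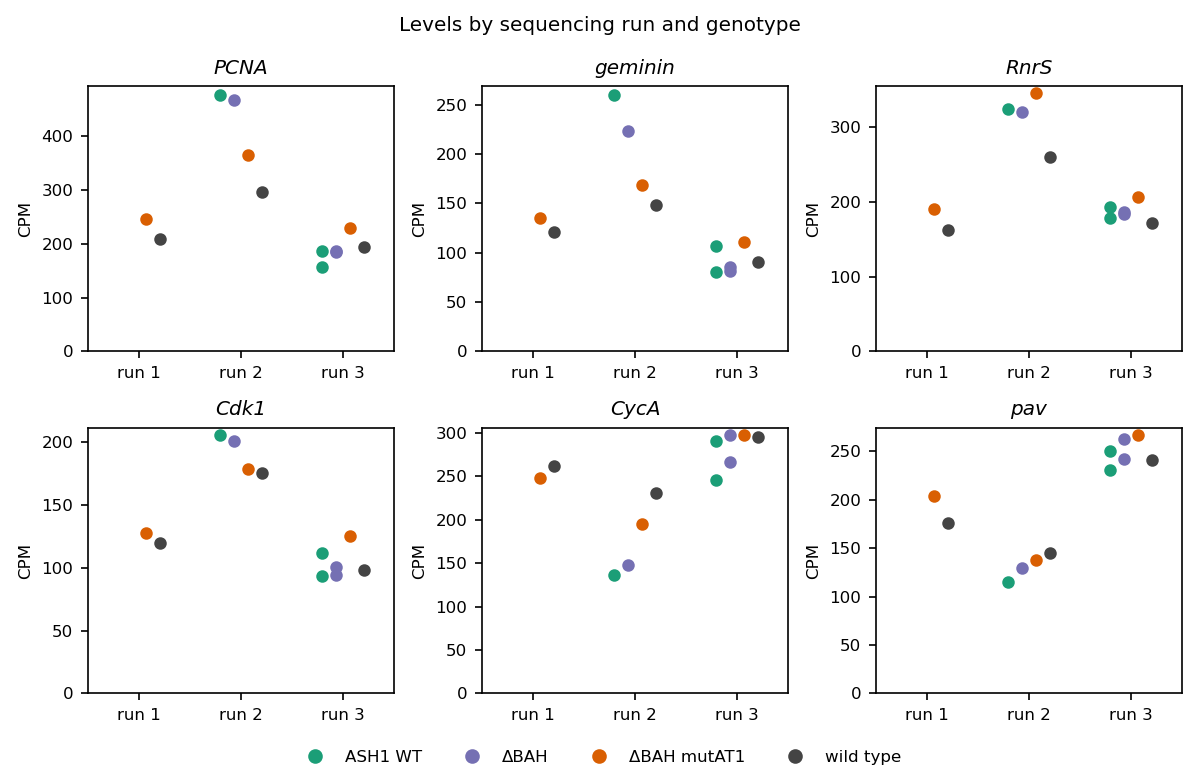
CPM of PCNA, geminin, RnrS, Cdk1, CycA and pav in each library by sequencing run, coloured by genotype. PCNA, geminin, RnrS and Cdk1 are higher in run 2 than in run 3 in all 4 genotypes, CycA and pav are lower, and run 1 lies between or near run 3.

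The difference between the runs was ordered by transcript length. All 9 genes with less than 1200 bp of exon (Orc6, geminin, PCNA, RfC3, RfC4, RPA2, Cdk1, aurB and mad2) were called lower in run 3, with a median log2 fold change of -0.89, close to the median of -0.85 of the 1612 tested genes of that length. Of the 9 genes with 3000 bp or more, 5 were called higher and 1, stg, lower, with a median of 0.22, beside 0.53 for 2431 tested genes of that length. Across the 37 genes log2 exon length and the run difference had a Pearson correlation of 0.82 and a Spearman correlation of 0.88. Across 7651 tested genes with a length the values were 0.66 and 0.78. These correlations are across genes of the same libraries, and genes are not independent replicates. Within single libraries, the slope of log2 level on log2 length was 0.12 to 0.23 in run 3, and -0.35 to -0.12 in run 2, and it was -0.35 and -0.31 in the run 2 libraries of ASH1 WT and ΔBAH.

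After each library was corrected for its trend with length, the correlation across the 37 genes was 0.01 (Pearson) and 0.05 (Spearman). A total of 23 genes still passed, 7 higher in run 3 (beside 21.0% of all tested genes) and 16 lower (beside 18.3%). pav (0.69 ± 0.06) and CycA (0.58 ± 0.08) remained higher and geminin (-0.40), PCNA (-0.37) and RnrS (-0.37) lower, while RPA2 (-0.09, adjusted p 0.33, edgeR), mad2 (-0.06) and aurB (-0.12) no longer passed. E2f1 and CycE, the longest transcripts of the set, turned to -0.43 and -0.40, and RfC3 turned to 0.27. The run 2 libraries of ASH1 WT and ΔBAH were the most extreme. PCNA had 476.7 CPM in ASH1 WT and 466.3 CPM in ΔBAH in run 2, but 364.9 CPM in ΔBAH mutAT1 and 295.3 CPM in wild type. Without these 2 libraries 17 of the 37 genes passed, 6 higher and 11 lower in run 3, beside 43.4% of all tested genes. Run and date of RNA preparation cannot be told apart here.

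**Figure D5:**
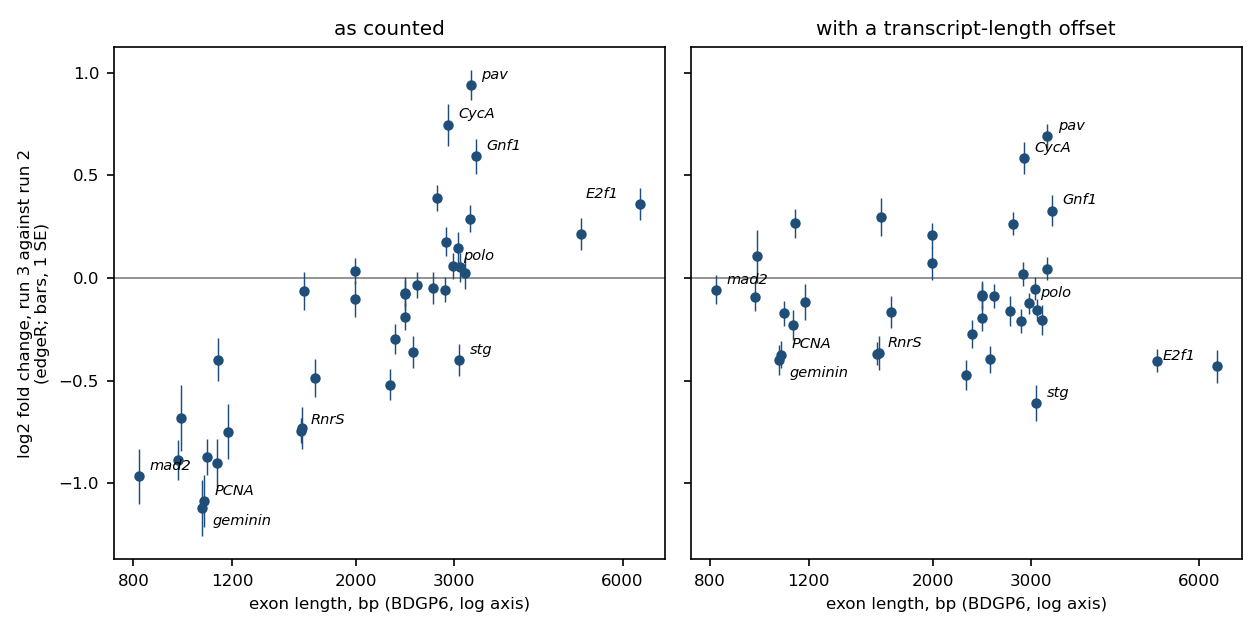
Log2 fold change of run 3 against run 2 for each of the 37 genes (bars, 1 SE) by exon length on a log axis, as counted on the left and with a length offset per library on the right. On the left the points climb with length (Spearman correlation 0.88), and on the right they do not (0.05).

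With both the length correction and run as a term, the comparisons with wild type gave more calls in the set and in the whole table. For ASH1 WT 2 genes were called, Cdk2 higher and CycA lower, beside 10.5% of all tested genes. For ΔBAH 3 were called (dup, RnrL and Cdk2), beside 10.3%, and for ΔBAH mutAT1 6 (dup, RnrS, Mcm3, Mcm5, Mcm6 and Mcm7), beside 9.03%. For the 3 lines together there were 7 (dup, RnrL, RnrS, Orc2, Cdk2, Mcm5 and Mcm7), beside 15.1%. All of these but CycA were higher in the transgenic discs. The shares of the 37 genes called in ASH1 WT and in ΔBAH were not above those of the whole table.

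Other genes of the same processes were tested beside the 37. Of 21 further replication genes tested, 0 were called in any comparison of genotypes in the model without a run term or length correction. Their median log2 fold change in ΔBAH mutAT1 was 0.18, with 16 of 21 above 0, against 49.6% of all tested genes. With run as a term 3 of the 21 were called higher in ΔBAH mutAT1, beside 3.33% of all tested genes. They were the primase subunit gene Prim2 (0.54 ± 0.13), the polymerase epsilon subunit gene PolE2 (0.51 ± 0.12) and RPA3 (0.73 ± 0.20), with adjusted p of 0.028, 0.027 and 0.049 (edgeR). Over the 3 lines together Prim2 (0.44 ± 0.11) and RPA3 (0.62 ± 0.17) were called higher with that term (adjusted p 0.026 and 0.037, edgeR), beside 4.92% of all tested genes. With the length correction alone, PolE2 (0.48, adjusted p 0.034) and RPA3 (0.61, adjusted p 0.0056) were called higher in ΔBAH mutAT1 (edgeR), beside 174 of 8346 tested genes. RPA3 was then also called higher over the 3 lines together (0.41, adjusted p 0.014, edgeR). Psf1, a subunit gene of the GINS complex, was called lower in ASH1 WT (-0.67, adjusted p 0.045, edgeR), beside 104 of 8346 tested genes. RPA3 averaged 49.3 CPM in ΔBAH mutAT1, against 30.0 CPM in wild type. Of 17 further cell cycle regulators 0 were called in any genotype comparison, with or without the run term, and the median was 0.05 in ΔBAH mutAT1. Among 46 further mitosis genes 0 were called without the run term, with a median of 0.04 in ΔBAH mutAT1. With it, 1 of the 46 was called, pim, the fly securin, which restrains separase until anaphase. pim was higher in ASH1 WT (0.54 ± 0.10, adjusted p 0.0085, edgeR), in ΔBAH mutAT1 (0.37 ± 0.09, adjusted p 0.038) and in the 3 lines together (0.40 ± 0.08, adjusted p 0.0089). Of all tested genes 3.67%, 3.33% and 4.92% were called higher in these comparisons.

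Some of these genes share sequence with a neighbour in the BDGP6 annotation. Exons of Cdk2 (chromosome 3R, 20735623 to 20738414) overlap those of another gene, which had 0 to 2 counts per library, over 1010 bp, and those of Mcm7 (chromosome 3L, 8891596 to 8894310) overlap a noncoding antisense RNA over 2003 bp. RfC38 overlaps a neighbour over 404 bp and Mcm3 (chromosome X, 5323855 to 5326738) over 64 bp. Whether the counting used strand was not given, so reads of the overlapped parts cannot be assigned to either gene. Mcm5 (chromosome 3R, 10788524 to 10791150) and RnrS (chromosome 2R, 11983145 to 11985393) have no such overlap.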

How the data were processed

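Whole-disc mRNA of 12 libraries was measured with single-end reads. Per the study's methods and the submitters' processing notes, the authors aligned the reads to dm3 with TopHat2 2.0.9 and counted them per Ensembl gene with HTSeq 0.5.4p3. The deposited values are raw counts per gene, without normalization; the strand and multi-mapping options are not given in the sources used here. All 12 columns were used. Positions and exon lengths are those of BDGP6, not of dm3; 13524 of the 14869 identifiers are in it.

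The counts were fitted with edgeR 4.0.16 in R 4.3.3 (filterByExpr with a minimum count of 10, TMM factors from 0.974 to 1.037, 1 coefficient per genotype over 12 libraries, a prior count of 0.125, 8346 genes tested). Adjusted p are Benjamini-Hochberg values over all tested genes, and a gene was called at an adjusted p below 0.05. An SE is the absolute log2 fold change divided by the square root of F. The coefficient of variation between replicates was 32.0%, and 14.4% with sequencing run as a term. Depth lay between 15083960 and 39180697 counts. The length correction was a lowess of each library's log2 deviation on log2 exon length (span 0.3), used as an offset. The scripts were tested on simulated data.

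The run of each library was inferred from its internal number, since these form 3 consecutive blocks. Replicates with the same number shared a run in wild type and ΔBAH mutAT1 (correlations of deviations 0.42, 0.44 and 0.49) and in ASH1 WT and ΔBAH (0.81, 0.59 and 0.49). Elsewhere the signs were mixed. Only equal numbers were correlated, so a shared run and a pairing by number cannot be told apart. The genes and lists were chosen with earlier results of these data known. Every gene of the set is named with its level. Fold changes are given for genes called, for the 2 smallest p per direction of each genotype comparison, and for the 3 in each direction of the run comparison; others were chosen after their values were seen. Alternatives were RLE factors, DESeq2 1.42.0, limma-voom 3.58.1 on all genes, no filter, a replicate block, sequencing run as a term, only the libraries compared, and leaving out each library. The length corrections, the block with only the libraries compared and leaving out the run 2 libraries were added after the data had been seen. P-values measure the spread between RNA preparations of 1 line per genotype.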

Additional observations from a re-analysis of the deposited data

Results flagged for a closer look

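The difference of PCNA between runs was not the same in all genotypes. PCNA was lower in run 3 than in run 2 by a log2 difference of -1.48 for ASH1 WT libraries, -1.33 for ΔBAH libraries and -0.67 for ΔBAH mutAT1 libraries, and by -0.61 for wild type. In a model of the libraries of runs 2 and 3 with a term for genotype by run, the run difference of ASH1 WT minus that of wild type was -0.87 with an adjusted p of 0.0495 (edgeR, 8233 genes, of which 227 passed). For ΔBAH the value was -0.71 (adjusted p 0.13), and for ΔBAH mutAT1 it was -0.05 (adjusted p 1.00). Most genotype and run cells of this model hold 1 library, so the spread comes from the run 3 pairs of ASH1 WT and ΔBAH. The model had no length correction, and PCNA has 1070 bp of exon. The other genes of the set under 1200 bp had values of -0.75 (geminin) to -0.17 (Cdk1) for ASH1 WT. In run 2 the slope of level on length was -0.35 in ASH1 WT and -0.31 in ΔBAH, against -0.17 in ΔBAH mutAT1 and -0.12 in wild type. The part of transcript length in this result was not tested. No other of the 37 genes passed in any line, and at an unadjusted p below 0.05 there were 6 genes for ASH1 WT, 6 for ΔBAH and 1 with mutAT1.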

How the results depend on the processing

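The 0 calls among the 37 genes in each genotype comparison stayed 0 with RLE factors, limma-voom on all genes, no filter, only the libraries compared, the length correction alone, and without the run 2 libraries. The replicate block over all 12 libraries also gave 0 calls in every genotype comparison. With only the libraries compared, the replicate block gave 10 in ΔBAH mutAT1 against wild type and 0 in the other pairs. Sequencing run as a term gave 1 call in ASH1 WT, 4 in ΔBAH mutAT1 and 2 in the 3 lines together against wild type. DESeq2 gave 2 in ΔBAH, 1 in ΔBAH mutAT1 and 2 in the 3 lines together. The length correction with run as a term gave 2, 3, 6 and 7 in ASH1 WT, ΔBAH, ΔBAH mutAT1 and the 3 lines together. Leaving out 1 library gave 0 to 1 calls in ASH1 WT, 0 to 1 in ΔBAH mutAT1 and 0 to 3 in the 3 lines together, those above 0 only with run as a term, and 21 to 26 between the runs.

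Leaving out wild type replicate 2 moved the median log2 fold change to 0.27 in ΔBAH, 0.30 in ΔBAH mutAT1 and 0.27 in the 3 lines together. With run as a term these medians were 0.09, 0.17 and 0.10. Values that turned sign were CycB in ΔBAH mutAT1 against wild type, at 0.017 without the run 2 libraries and -0.14 to 0.036 without 1 library (0.012 without wild type replicate 2 or ΔBAH mutAT1 replicate 1), and CycB3 there, at -0.16 to 0.046 without 1 library. CycA in ASH1 WT ranged from -0.44 to 0.028 without 1 library, and Orc6 in ΔBAH against ASH1 WT from -0.59 to 0.20. Both turned without ASH1 WT replicate 1. With run as a term over all 12 libraries CycA was at -0.41 and Orc6 at -0.26. With run as a term and 1 library left out, CycA reached -0.59 and Orc6 turned to 0.0045. The cause was not tested. Limma-voom on unfiltered genes moved the median of all genes in the run comparison to 0.47, against -0.09, and its calls to 6620 higher and 3005 lower, against 2433 and 2924; the 37 genes had 9 higher and 17 lower.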
